A study of Schizosaccharomyces pombe with 6 samples.

Results

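The genes described here are 9 that encode the cytoplasmic machinery acting on the poly(A) tail and the cap of mRNAs in fission yeast (*Schizosaccharomyces pombe*), picked by identifier from the 6345 genes of the authors' deposited comparison table. They are *ath1*, the poly(A)-binding protein gene, the deadenylase genes *ccr4* and *caf1*, the decapping activator genes *lsm1* and *ste13*, the decapping enzyme genes *dcp1* and *dcp2*, and the exonuclease gene *exo2*. RNA from 3 *mkt1Δ* libraries (strain EHB2196) was compared with RNA from 3 wild-type libraries (strain EHB7), all from cells in exponential growth in the rich medium YES at 32°C. In EHB2196 the *mkt1* gene is replaced by a NatR resistance marker. Both strains are of mating type h+ and carry *leu1-32*, *ura4-D18* and *ade6-210*, and both have an *ade6+* reporter in a pericentromeric repeat, otr1R(Sph1):ade6+. Each genotype is represented by a single strain, so an effect of the deletion and any other difference between these strains cannot be told apart. Measurements of single libraries were not analysed here, and each value below is the authors' estimate over all 6 libraries.

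A cytoplasmic mRNA is usually degraded in steps. Its poly(A) tail, which is coated by poly(A)-binding protein, is first shortened by the Ccr4-Not deadenylase, after which the Lsm ring and a DEAD-box helicase (Ste13 in fission yeast, Dhh1 in budding yeast) promote removal of the cap by Dcp2, and the uncapped RNA is digested from its 5′ end by an exonuclease. Ath1 is the fission yeast relative of ataxin-2, a conserved RNA-binding protein that in budding yeast (Pbp1) binds both poly(A)-binding protein and Mkt1. Mkt1 of budding yeast is known for post-transcriptional control with Pbp1, and the comparison asks whether cells without Mkt1 carry altered amounts of the mRNAs for the decay machinery itself.

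The identity of each gene was checked against its description. The descriptions name Ste13, Exo2, Dcp1, Dcp2, Ccr4 and Caf1, and give *ath1* as the ataxin-2 homologue. The description of SPBC3D6.08c, *lsm1*, reads only as a predicted subunit of the mRNA decapping complex, and that of SPAC57A7.04c, the poly(A)-binding protein gene, reads as an mRNA export shuttling protein. In the ASM294v3 annotation SPAC57A7.04c has the symbol *pabp*, which is used below. The symbol *pab1* belongs there to another gene, SPAC227.07c, described as a regulatory subunit of protein phosphatase PP2A. That gene had a log2 fold change of 0.03 (adjusted p = 0.909) and is not among the 9. The deletion is seen in the table, since *mkt1* (SPAC139.01c) had a log2 fold change of -4.01, or 0.0622 times the wild-type level (adjusted p = 1.01e-25).

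None of the 9 mRNAs was called different between *mkt1Δ* and wild-type cells. By the edgeR comparison deposited by the authors, 0 of 9 fell under an adjusted p-value of 0.05, and 0 of 9 had an unadjusted p-value under 0.05. Of all 6345 genes, 556 (8.76%) passed the adjusted threshold, as did 378 of 5059 mRNAs (7.47%) and 317 of the 4408 mRNAs in the same range of mean expression as these genes (7.19%), and 22.1% of all genes had an unadjusted p-value under 0.05. With 9 genes and a background of this size a count of 0 is close to the background, and nothing particular to these genes is read from it. Their log2 fold changes ran from -0.15 for *dcp1* to 0.16 for *pabp*, with a median of -0.04. Of the estimates 3 lay above 0 and 6 below, but those of *exo2*, *lsm1* and *ccr4* came to lie just above 0 when recentred on mRNAs of similar level. Over all mRNAs the median was -0.02, and over all genes it was 0.00. The median size of the change, taken without its sign, was 0.10 for the 9 mRNAs and 0.11 for all mRNAs.

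The table holds no standard errors, so the error of each log2 fold change was derived from its p-value under a normal approximation, and all errors and 95% intervals given here are these implied values. For the 9 genes the implied standard error (SE) lay between 0.09 and 0.16, and each of the 9 intervals held 0. All 9 intervals also stayed inside a 1.5-fold change in either direction, with outer bounds of -0.47 for *dcp1* (a change of -27.7%) and 0.35 for *pabp* (a change of 27.6%). A range from -0.02 to 0.08 was common to all 9 intervals. Overlap of intervals does not test a difference between genes. Such differences were not tested, and the genes are not ordered by their response to the loss of Mkt1.

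**Figure D1:**
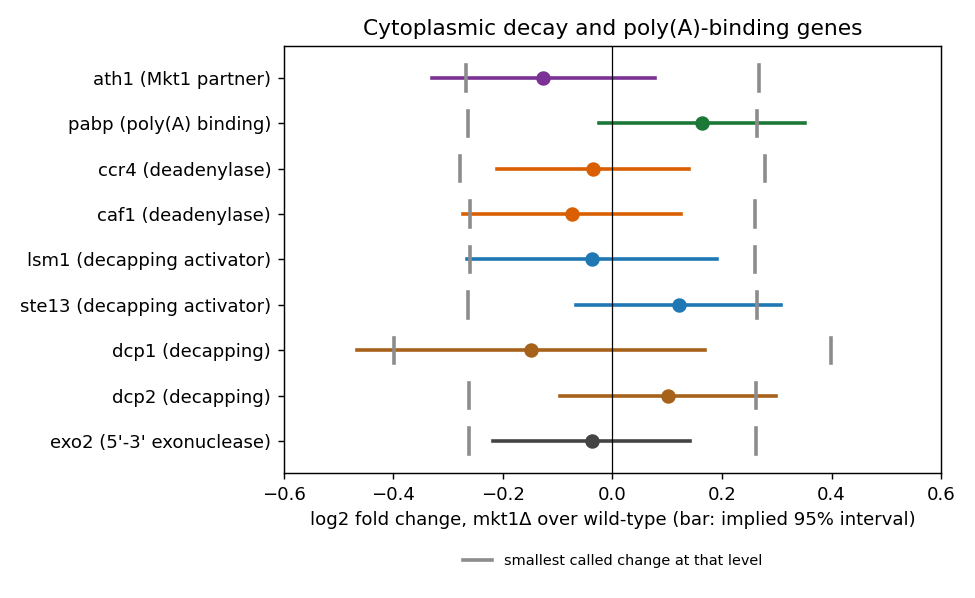
Log2 fold change of each of the 9 mRNAs in mkt1Δ over wild-type cells (x axis), with genes down the page and coloured by role. Points are the deposited estimates, bars the implied 95% intervals, and grey ticks the smallest change, in either direction, called at an adjusted p-value under 0.05 among mRNAs within 0.5 log2 CPM of the gene. All 9 bars cross 0 and all 9 points lie between the grey ticks, the widest bar being that of dcp1.

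Ath1 is the closest partner of Mkt1 in this set, and its mRNA was among those with the larger estimates. *ath1* (SPBC21B10.03c) had a log2 fold change of -0.13 (SE 0.10, interval -0.33 to 0.08, adjusted p = 0.520), which corresponds to 0.916 times the wild-type level. The mRNA of poly(A)-binding protein, to which ataxin-2 proteins bind, had the largest estimate of the 9 and the opposite sign. *pabp* (SPAC57A7.04c) had a log2 fold change of 0.16 (SE 0.10, interval -0.02 to 0.35, adjusted p = 0.316), or 1.12 times the wild-type level. Its unadjusted p-value of 0.0888 was the smallest in the set. The nuclear poly(A)-binding protein gene *pab2* (SPBC16E9.12c) stood at 0.02 (SE 0.09).

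The catalytic subunits of the Ccr4-Not complex remove adenosines from the tail. *ccr4* (SPCC31H12.08c) had a log2 fold change of -0.04 (interval -0.21 to 0.14, adjusted p = 0.865), the smallest estimate of the 9, and *caf1* (SPCC18.06c) had -0.07 (interval -0.27 to 0.13, adjusted p = 0.740). Around this enzymatic core the complex holds the scaffold Not1 and several regulatory subunits. Of 7 Ccr4-Not genes examined, these included, 0 were called and 6 had estimates below 0. Of the 4408 mRNAs in the expression range of the 9 genes, 2490 were below 0 too, and no shared fall is read from the signs. The lowest of the 7 was *not3* at -0.12 (adjusted p = 0.452) and the scaffold gene *not1* stood at -0.02. The estimate above 0 was that of *rcd1*, at 0.24 (SE 0.10), with an unadjusted p-value of 0.0149 and an adjusted p-value of 0.111. The alternative deadenylase, formed by Pan2 and Pan3, gave -0.04 for *pan2* and -0.08 for *pan3*, and neither was called.

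Lsm1 is the subunit that sets the cytoplasmic Lsm ring, which binds shortened tails, apart from the nuclear ring that holds Lsm8 and binds U6 RNA. *lsm1* (SPBC3D6.08c) had a log2 fold change of -0.04 (interval -0.26 to 0.19, adjusted p = 0.898), against 0.06 for *lsm8* (SE 0.17). Among the 8 Lsm genes 1 was called. This was *lsm6* (SPAC2F3.17c), whose product is shared by both rings, and which fell by 0.35 on the log2 scale in *mkt1Δ* cells (SE 0.11, adjusted p = 0.0300). The highest of the 8 was *lsm2*, at 0.25, with an unadjusted p-value of 0.0133 and an adjusted p-value of 0.102, so that subunits of the same ring had estimates of opposite sign. Their median was 0.00.

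Ste13, the helicase that represses translation and promotes decapping, is also one of the proteins purified with Mkt1 in the study. *ste13* (SPBC776.09) had a log2 fold change of 0.12 (interval -0.07 to 0.31, adjusted p = 0.4998). The decapping enzyme consists of the catalytic subunit Dcp2 and its activator Dcp1. *dcp2* (SPAC19A8.12) had a log2 fold change of 0.10 (interval -0.10 to 0.30, adjusted p = 0.613) and *dcp1* (SPBC3B9.21) had -0.15 (interval -0.47 to 0.17, adjusted p = 0.651). Their signs differed, but the intervals overlapped and the difference was not tested. The interval of *dcp1* was the widest of the 9, in step with its mean log2 CPM of 3.81, the lowest of the 9. In the decapping list of 8 genes, which also held the enhancer *edc3* (-0.05), the scaffold gene *pdc1* (-0.06), the Pat1 relative *pdc2* (-0.01), *sum2* (-0.05) and the scavenger decapping enzyme gene *nhm1* (0.09), 0 were called, and *ste13* and *dcp1* marked its upper and lower ends.

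Exo2, the relative of Xrn1, digests uncapped RNA in the cytoplasm. *exo2* (SPAC17A5.14) had a log2 fold change of -0.04 (interval -0.22 to 0.14, adjusted p = 0.860). Its nuclear counterpart *dhp1* stood at -0.01 (SE 0.09) and the Dhp1-binding partner gene *din1* at -0.03, and 0 of these 3 genes were called.

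The smallest changes that were called are given here as a description of the comparison at each level of expression. Among mRNAs within 0.5 log2 CPM of each gene, between 6% and 13.5% were called, and the smallest called log2 fold change, without its sign, lay between 0.26 and 0.28 for 8 of the genes and at 0.40 for *dcp1*. For *ath1*, 46 of 341 mRNAs of similar level were called, the smallest at 0.27, and for *pabp* 9 of 143 were, the smallest at 0.26. Each of the 9 estimates was smaller than the smallest called change in its own window, and 5 of 9 were smaller than the median change there. As none of the 9 was called, the first of these counts adds no separate evidence. These bounds are not sharp, since larger changes in the same windows were not called. The largest uncalled change ran from 0.41 near *ath1* to 0.65 near *dcp1*. It was 0.42 near *pabp* and 0.59 near each of *exo2*, *dcp2*, *lsm1* and *caf1*. The size of change detectable with 3 libraries per strain was not computed.

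**Figure D2:**
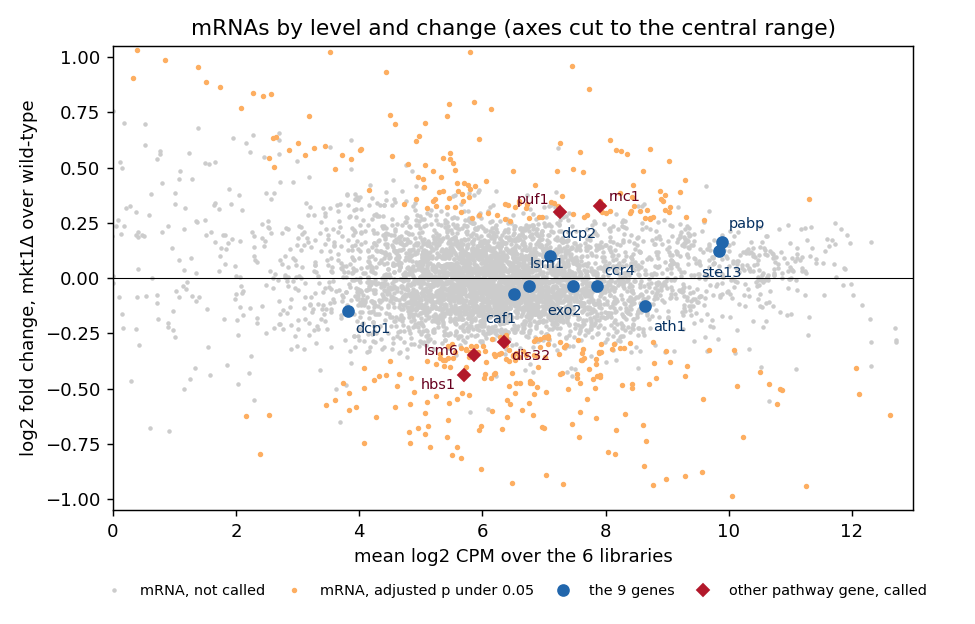
Log2 fold change in mkt1Δ over wild-type cells (y axis) against mean log2 CPM over the 6 libraries (x axis) for mRNAs, with both axes cut to the central range. Grey points were not called, orange points had an adjusted p-value under 0.05, blue points are the 9 genes and red diamonds the other pathway genes called. The blue points lie within the grey band at levels from 3.81 to 9.89, and the diamonds at its edge, from -0.44 (hbs1) to 0.33 (rnc1).

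The 9 mRNAs span a wide range of abundance. Levels were compared as mean log2 CPM per kilobase of transcript, with transcript lengths from the ASM294v3 annotation. *pabp* and *ste13* were the most abundant at 8.60 and 8.59 log2 CPM per kb, above 93.2% of all mRNAs in both cases. *lsm1* and *ath1* followed at 7.27 and 7.16, then *ccr4* at 6.73, *caf1* at 5.95, *dcp2* at 5.59 and *exo2* at 5.41. *dcp1* was lowest at 4.35, above 25.5% of mRNAs. By this measure the mRNA for the regulatory subunit of the decapping enzyme was the less abundant of the pair. Any reads lost where *dcp1*, *caf1*, *ste13* or *ath1* overlaps another gene, described below, were not corrected for. No spread between libraries could be given for these levels, and neighbours in this order such as *pabp* and *ste13* cannot be ranked. The 9 genes lie on chromosomes I (3), II (4) and III (2), and have between 0 introns (*ath1*, *pabp*, *ccr4*, *caf1*, *dcp2*) and 3 (*lsm1*).

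The rest of the pathway was described from 11 lists holding 58 further genes, of which 5 were called (8.62%), 2 higher and 3 lower in *mkt1Δ* cells. A separate list held proteins purified with Mkt1, which added 8 genes outside the pathway lists, 0 of them called. Of all genes, 4.7% were called higher and 4.07% lower, so these counts are near the background. The median log2 fold change of the 58 was -0.03, and none of the 5 changes reached 2-fold. The largest fall was that of *hbs1* (SPBC25B2.01), which encodes a GTPase that with Dom34 rescues stalled ribosomes in no-go decay. It fell by 0.44 on the log2 scale (SE 0.12, adjusted p = 0.00632), while its partner *dom34* stood at -0.13 (adjusted p = 0.441). In the same list the nonsense-mediated decay genes *upf1*, *upf2* and *upf3* stood at 0.11, -0.04 and -0.05, and *ebs1* was highest at 0.14, none of them called.

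A further fall was found for *dis32* (SPAC2C4.07c), the gene of Dis3L2, which digests RNAs from the 3′ end, with a preference for uridylated tails. It fell by 0.29 on the log2 scale (SE 0.10, adjusted p = 0.0368). The terminal uridylyltransferase gene *cid1* stood at -0.02 and *cid16*, the highest of that list, at 0.03. The Ski complex genes *ski2*, *ski3* and *rec14* stood at -0.01, -0.13 and -0.03, with *ski7* at -0.07, and were not called.

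The 2 mRNAs called higher encode proteins that bind mRNAs in a sequence-dependent manner. *rnc1* (SPCC757.09c), whose KH-domain product stabilises the mRNA of a MAPK phosphatase in fission yeast, rose by 0.33 (SE 0.09, adjusted p = 0.00811), and *puf1* (SPBC56F2.08c), of the pumilio family, rose by 0.30 (SE 0.09, adjusted p = 0.0226). These were 2 of 10 genes in a list of 3′UTR-binding adaptors, the other 8 of which were not called and included *puf3*, the lowest at -0.16, *puf2* at -0.10, *puf4* at -0.15 and the tristetraprolin relative *zfs1* at -0.04. Of all mRNAs 7.47% were called, and with only 10 genes nothing is read from the count of 2. Binding of this kind was the basis of the list and is no finding about these 2 genes. Of the 4 pumilio genes listed, *puf1* was the one called. Whether *puf1* differed from *puf2*, *puf3* or *puf4* was not tested.

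In the list of poly(A) binding and synthesis (8 genes) 0 were called. It ran from -0.13 for the nuclear poly(A) polymerase gene *pla1* to 0.45 for *cid11*, which had a mean log2 CPM of only 1.07 and an adjusted p-value of 0.245. Among 5 genes of the cap-binding eIF4F complex and its cofactor 0 were called, with *tif452* lowest at -0.06 and the eIF4A gene *tif1* highest at 0.23 (adjusted p = 0.109). Among 6 genes for stress granule proteins, to which *ath1* and *pabp* also belong, the highest was the DEAD-box helicase gene *sum3* at 0.22 (adjusted p = 0.128), and 0 were called. The 11 genes whose proteins were purified with Mkt1 in the study include *ath1* and *ste13*. They ran from -0.13 for *ath1* to 0.17 for *rga5*, a RhoGAP gene, with a median of 0.05 and 0 called. The cap-binding protein gene *tif45* was at 0.05 in that list, and the smallest unadjusted p-value was 0.0772.

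**Figure D3:**
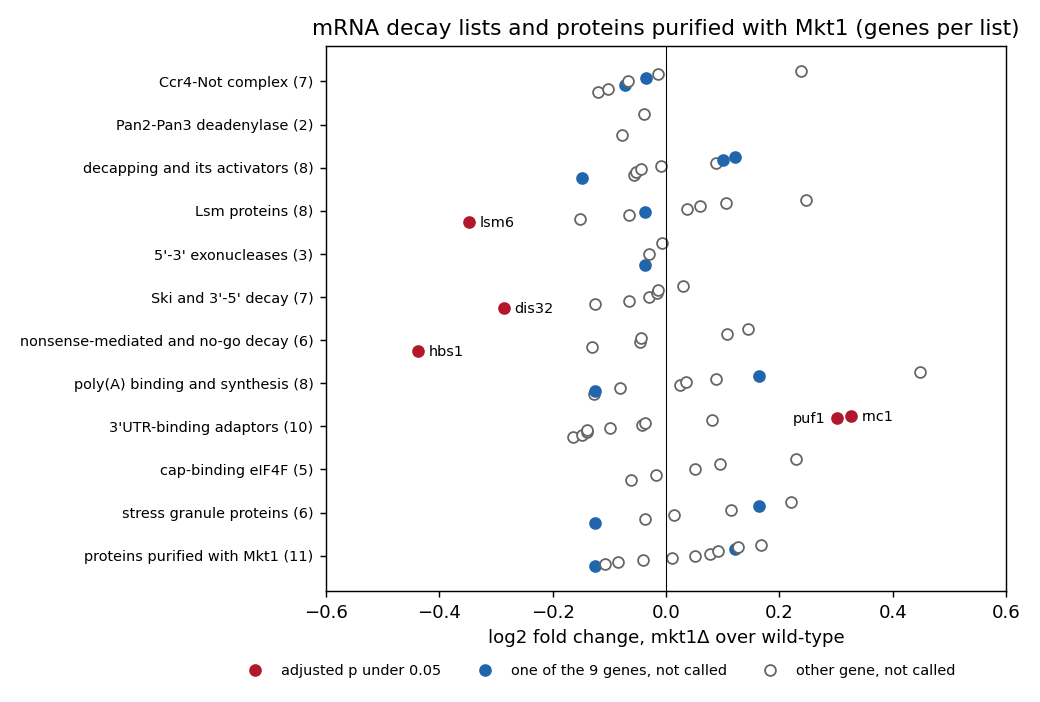
Log2 fold change in mkt1Δ over wild-type cells (x axis) of each gene in 11 lists of the mRNA decay pathway and, on the lowest line, of proteins purified with Mkt1, 1 list per line with its number of genes and the genes spread vertically for legibility. Red points had an adjusted p-value under 0.05, blue points are members of the set of 9 and white points are other genes that were not called, some genes standing in more than 1 list. The 5 red points are lsm6, dis32, hbs1, puf1 and rnc1, and no list holds more than 2 of them.

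Genes beside the 9 were examined because shared reads could alter their counts. In the ASM294v3 annotation 22 genes with a row in the table overlap one of the 9 or are next to it, and 3 of them were called (*ost5*, SPNCRNA.1248 and SPNCRNA.1148). Over all genes the share called was 8.76%, and with so few neighbours nothing is read from this count. Each of these lies beside a deadenylase gene, but SPNCRNA.1248 and SPNCRNA.1148 do not overlap it. *ost5*, which encodes a predicted oligosaccharyltransferase subunit, overlaps 3.52% of the *caf1* gene on the same strand and rose by 1.49 (SE 0.35, adjusted p = 0.000791). The intergenic RNA SPNCRNA.1248, a neighbour of *caf1*, rose by 1.13 (SE 0.28, adjusted p = 0.00178). Next to *ccr4* the intergenic RNA SPNCRNA.1148 rose by 1.43 (SE 0.44, adjusted p = 0.0180). All of these were weakly expressed, and their mean log2 CPM was 0.55 for *ost5*, 1.82 for SPNCRNA.1248 and -0.82 for SPNCRNA.1148, and *caf1* and *ccr4* themselves were not called. Of all ncRNAs measured, 13.8% were called, and among these neighbours 2 of 3 ncRNAs were.

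Overlaps were also found at *dcp1*, *ath1* and *ste13*. The gene *oms1*, on the same strand, covers 8.20% of *dcp1* and had a log2 fold change of 0.20 (adjusted p = 0.561). In the union mode of the counting, reads that fall in a stretch shared by genes on the counted strand are assigned to neither gene. The overlaps are those of ASM294v3, and whether the annotation used for counting held them was not checked. On the opposite strand *cog6* covers 22.3% of *ste13* and SPBC21B10.02 covers 3.83% of *ath1*, with log2 fold changes of -0.01 and -0.16, neither called. The libraries were stranded, but whether reads were counted by strand is not given in the sources used here. Reads in the stretches shared by these opposite pairs may therefore also have been assigned to neither gene.

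**Figure D4:**
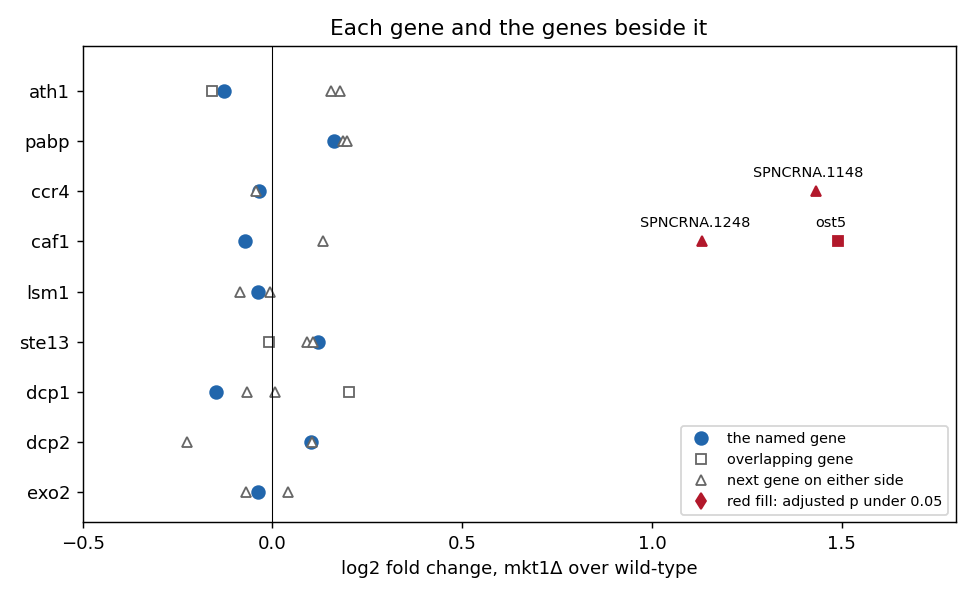
Log2 fold change in mkt1Δ over wild-type cells (x axis) of each of the 9 genes (blue) and of the genes that overlap it (squares) or lie next to it (triangles), 1 gene per line. Red fill marks an adjusted p-value under 0.05. The 3 red symbols, from 1.13 to 1.49, lie beside caf1 and ccr4, while the other neighbours stand between -0.22 and 0.20.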

How the data were processed

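Stranded mRNA libraries of 3 *mkt1Δ* and 3 wild-type samples were sequenced paired-end. Before deposit, the authors used cutadapt 1.8.3 for trimming, STAR 2.5 for alignment to ASM294v2.30 and HTSeq 0.6.1 (union mode) for counting, left out genes under 20 reads, and ran edgeR 3.12.0 on the strains. Which edgeR test was used is not given in the sources used here. The deposited table holds the authors' log2 fold change (*mkt1Δ* over wild-type), mean log2 CPM, p-value and adjusted p-value for each gene. These are the authors' own results and not a fresh test: no values per library were used, no model was refitted, and every log2 fold change, level and p-value given is theirs or follows from it. The depth of each library is unknown, and 0 columns of single samples were left out.

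Adjusting the p-values again by Benjamini-Hochberg, over the full table, matched the deposited adjusted p-value within 1e-06 for 6345 of 6345 genes. Standard errors were implied from the log2 fold change and the two-sided p-value by the normal quantile. Their median over mRNAs was 0.10 both for p-values above 0.5 and for the rest. The libraries of a strain are described as biological replicates, with no more said of their origin. The self-test used simulated data with 200 changed genes. Names, neighbours and transcript lengths came from the RefSeq annotation ASM294v3, another build than the authors', in which 6299 genes were matched by identifier, so no coordinates or sequences are given. The 9 genes and the lists were chosen with earlier results of these data known. The list entries *pab1* and *tif451* were replaced by the identifiers of the poly(A)-binding protein and eIF4E genes after the annotation was read. Named are the 9 genes, *mkt1*, list genes and neighbours with an adjusted p-value under 0.05, and the ends of each list; others were named for their role. Python 3.11.15, numpy 2.4.6, pandas 2.3.3, scipy 1.17.1 and matplotlib 3.10.9 were used.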

Additional observations from a re-analysis of the deposited data

How the results depend on the processing

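The count of 0 called among the 9 genes was 0 under each of 6 other thresholds tried. This had to be so, since their smallest unadjusted p-value in the authors' edgeR comparison was 0.0888, and it is no separate check. Among the 66 further listed genes, made up of 58 pathway genes and 8 found only in the list of proteins purified with Mkt1, 5 were called, and also 5 with the adjustment over mRNAs only or over genes with a mean log2 CPM above 0. At an adjusted p-value under 0.01 the count was 2 (*hbs1* and *rnc1*), and with a 2-fold limit or a Bonferroni adjustment it was 0. At an unadjusted p-value under 0.05 it was 9 (with *rcd1*, *lsm2*, *tif1* and *sum3*, all higher in *mkt1Δ* cells). Of all genes 22.1% passed that unadjusted threshold, a larger share than 9 of 66, and nothing is read from this count. Recentring on all mRNAs or on mRNAs of similar level moved the median of the 9 log2 fold changes from -0.04 to -0.02 or 0.01, less than the implied error. With a window of 0.25 log2 CPM the median smallest called change was 0.28, against 0.26. No paired analysis was possible because only strain-level estimates were used and columns carry no replicate. Leaving out single libraries could not be run either, so whether a single library sets a value, or batches differ between the strains, was not tested.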
